A study of Mus musculus with 10 samples.

Results

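The Ifi200 genes and Aim2 encode the HIN-200 proteins of the mouse, sensors of DNA inside the cell. They were taken by symbol, as the rows of the deposited CT26 count table named Ifi203, Ifi204, Ifi205, Ifi207, Ifi208, Ifi209, Ifi211, Ifi213, Mnda or Aim2. Of these 10 names, 9 had a row among the 36009 genes of the table. Mnda had none, and RefSeq lists it as an older symbol of Ifi211. All 9 genes had counts high enough to be tested, among 16041 genes in all. The tumors were subcutaneous CT26 tumors, a mouse colorectal carcinoma line, in wild-type female BALB/c mice, and they were untreated when the sequenced piece was removed by surgery. A hydrogel loaded with poly(I:C), a synthetic double-stranded RNA, was then placed on the tumor that was left. The 6 responders were tumors that regressed completely and the 4 non-responders were tumors whose growth was not delayed. The comparison addressed whether the sensors already differed before treatment between tumors with these outcomes.

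HIN-200 proteins bind double-stranded DNA through a HIN domain, and most carry a pyrin domain that recruits partners. AIM2 recruits the adaptor ASC, encoded by Pycard, and so builds an inflammasome, in which caspase-1 matures IL-1 beta and IL-18 and cleaves gasdermin D. IFI204 is held to be a mouse counterpart of human IFI16 and works beside cGAS and STING, which lead to type I interferon. The genes lie side by side, are mostly inducible by interferon and are known chiefly from macrophages, dendritic cells and other leukocytes.

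The 9 genes span chromosome 1 from 173350879 to 174031810 (GRCm38, 680932 bases), with Aim2 at one end and Ifi205 at the other. Another 4 HIN-200 genes with a row in the table, Mndal, Ifi202b, Ifi206 and Ifi214, lie in the same cluster. RefSeq promoters (GRCm38.p6, 250 bases before to 50 after each start) were given for 12 of these 13 genes, and Ifi204 was the one without an entry. On either strand they were searched for GAAANNGAA, the core of the interferon-stimulated response element (ISRE) that interferon regulatory factors bind, and for TTCNNNGAA, the gamma-activated site (GAS) that STAT dimers bind. An ISRE match was found in 6 of the 8 genes with a promoter, Ifi203, Ifi205, Ifi207, Ifi208, Ifi211 and Ifi213, and in 9 of the 12 of the cluster. Of all 32851 promoters, each counted by itself, 8.56% held one, while a gene was counted where any of its starts did. A GAS match was found in 8.30% of all promoters and, in the cluster, in Ifi202b alone.

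The matches are shown in their surroundings because their letters and positions recurred between genes. The choice by symbol did not use promoter letters. It did take genes of the same family, so likeness between their promoters is not independent of that choice. Each stretch reads 5′ to 3′ on the strand of the gene, with the ISRE match in capitals.
Ifi208 (chr1:173673587-173673635, plus strand): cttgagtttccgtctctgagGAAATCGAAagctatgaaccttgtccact
Ifi213 (chr1:173599317-173599365, minus strand): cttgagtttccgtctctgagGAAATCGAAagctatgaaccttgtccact
Ifi206 (chr1:173491330-173491378, minus strand): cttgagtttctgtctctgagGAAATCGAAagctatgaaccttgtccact
Ifi214 (chr1:173536008-173536056, minus strand): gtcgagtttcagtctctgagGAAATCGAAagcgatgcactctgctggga
Ifi207 (chr1:173741822-173741870, minus strand): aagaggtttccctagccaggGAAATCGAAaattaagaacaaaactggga
Ifi203 (chr1:173942499-173942547, minus strand): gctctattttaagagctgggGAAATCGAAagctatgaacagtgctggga
Mndal (chr1:173880195-173880243, minus strand): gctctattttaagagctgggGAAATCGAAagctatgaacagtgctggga
Ifi211 (chr1:173913055-173913103, minus strand): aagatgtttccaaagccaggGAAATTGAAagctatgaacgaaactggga
Ifi205 (chr1:174031861-174031909, minus strand): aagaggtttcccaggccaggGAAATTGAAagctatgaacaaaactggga

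The stretches of Ifi208 and Ifi213 were identical, as were those of Ifi203 and Mndal. Between pairs of the stretches, 24 to 49 of 49 bases were identical. The letters GAAATCGAA, chosen after they were seen, stood in 7 of the 12 genes and in 30 of the 32851 promoters (0.0913%). Those 30 include promoters of these 7 genes. The capitals began between 35 bases (Ifi203) and 134 bases (Ifi205) before the start. Ifi205 held another match on the opposite strand, 24 bases after its start, and Mndal held one on the opposite strand, 53 bases before its other start. These matches are descriptions of the reference sequence and not measured binding sites.

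Neither Aim2 nor Ifi209 held a match of either motif. Ifi209 held taaatcgaa after the letters tctctgag, where Ifi214 held GAAATCGAA, and so differed from a match in the first letter. The window of Aim2, the one member whose level passed the test between the groups, is shown whole.
Aim2 (chr1:173420354-173420653, plus strand): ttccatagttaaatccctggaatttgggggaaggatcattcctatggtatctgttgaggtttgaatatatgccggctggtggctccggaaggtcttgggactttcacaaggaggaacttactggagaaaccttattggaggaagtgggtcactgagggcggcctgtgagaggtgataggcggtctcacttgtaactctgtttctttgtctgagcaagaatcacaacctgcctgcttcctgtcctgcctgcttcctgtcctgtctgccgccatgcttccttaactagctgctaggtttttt
The absence of a match says only that these letters are not in this window. The window lies inside the span of Aim2 given below, which begins at base 173350879, and the sequence at that beginning was not searched.

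**Figure D1:**
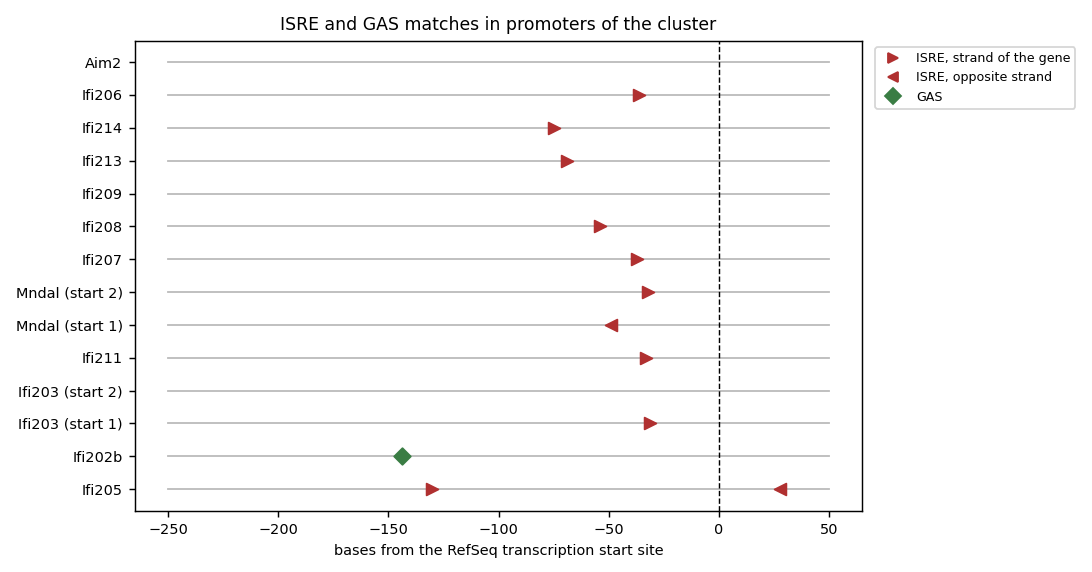
ISRE and GAS matches in the RefSeq promoters of 12 genes of the cluster, with bases from the transcription start site on the horizontal axis and one line per promoter (Ifi203 and Mndal have a pair of starts each). Triangles mark the middle of ISRE matches and point along their strand, the diamond marks the GAS match of Ifi202b, and the lines of Aim2 and Ifi209 are empty.

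Libraries held 23374649 to 38042544 estimated counts. Levels are given as CPM, counts per 1000000 of the scaled library total, and differences as log2 fold changes of responders over non-responders from edgeR. The labels do not tie each sample to a mouse. A supplementary figure legend of the study describes the samples as biologically independent, and the p-values measure the spread between these tumors.

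All the sensors were detected in each tumor, at levels that differed widely between genes. Per kilobase of exon, the median level over the 10 tumors was 39.5 CPM per kb for Ifi203 (24.7 to 42.3) and 37.95 CPM per kb for Ifi204 (20.1 to 44.5). Ifi211 followed at 21.1 and Ifi207 at 20.3 CPM per kb. Ifi205 (3.35), Ifi209 (3.18) and Aim2 (2.97 CPM per kb) formed a lower tier, and Ifi208 (0.779) and Ifi213 (0.497 CPM per kb) were the lowest. Between tiers the order was the same in 10 of 10 tumors, since Ifi204 exceeded Ifi211, Ifi207 exceeded Ifi205 and Aim2 exceeded Ifi208 in each one. Ifi209 also exceeded Aim2 in 10 of 10 tumors, by a ratio as low as 1.02. This close order depends on the length used. All exons of a gene together were counted (3547 bases for Ifi209, 3501 for Aim2), while the longest transcripts are 3439 and 2839 bases. The remaining neighbors were not separated with all exons counted. Ifi203 was above Ifi204 in 8 tumors, Ifi211 above Ifi207 in 5, Ifi205 above Ifi209 in 5 and Ifi208 above Ifi213 in 8. These counts depend on the length too. Ifi203 has 6706 bases of exon and a longest transcript of 3754, and Ifi204 has 3561 and 2296. Together Ifi203, Ifi204 and Ifi207 made up 83.9% to 86.0% of the summed CPM of the sensors ranked here in every tumor. Ifi202b, Mndal, Ifi214 and Ifi206 of the same cluster were left out of this order and this sum. The median of Ifi202b was 115.6 CPM per kb, above that of Ifi203, and that of Mndal was 23.3 CPM per kb. The medians of Ifi214 (0.478) and Ifi206 (0.382 CPM per kb) were below that of Ifi213.

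**Figure D2:**
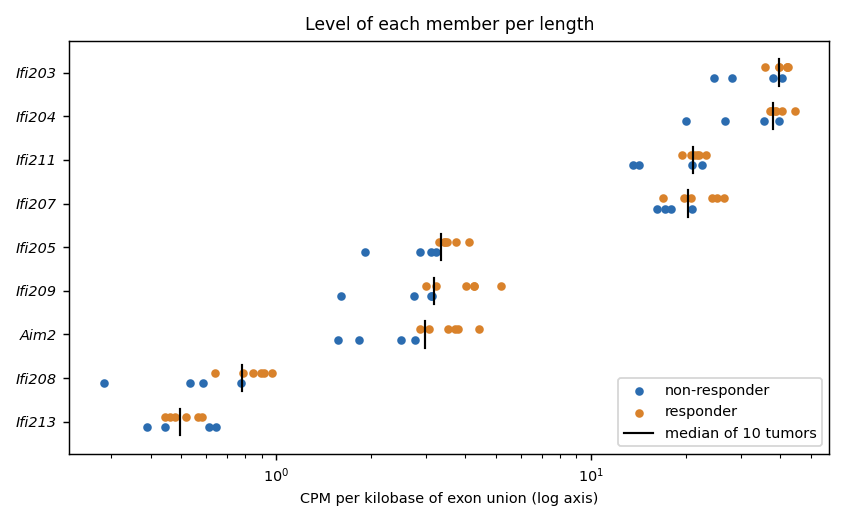
Level of each sensor in CPM per kilobase of exon (log axis) in the 10 tumors, by response, with genes in order of their median. The values fall into tiers, from Ifi203 (median 39.5) and Ifi204 (37.95) to Ifi208 (0.779) and Ifi213 (0.497 CPM per kb).

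Aim2 was the one member that passed the test. It was higher in responders by a log2 fold change of 0.72 (SE 0.17, adjusted p = 0.0345 by edgeR), or 1.65-fold. Across all genes tested, 4.71% were called higher in responders and 8.06% were called in either direction, so 1 of 9 members is near the background. The estimates of 8 of the 9 members were higher in responders, and 7 had an unadjusted p under 0.05, all higher, where 15.6% of all genes did so in that direction. The median log2 fold change of the members was 0.36, against -0.01 over all genes. Without non-responder 1 the median was 0.23, and without non-responder 1, non-responder 4 or responder 1 the count at an unadjusted p under 0.05 was 4. Every responder lay above every non-responder for 2 members, Aim2 and Ifi205, and for 5.84% of all genes. In bulk tumor RNA, fewer cells that express a gene and less RNA per cell cannot be told apart.

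Aim2 (ENSMUSG00000037860, GRCm38 chr1:173350879-173466040, plus strand) encodes the sensor that starts the DNA inflammasome. Responders were at 10.1 CPM at the lowest, 12.7 at the median and 15.5 at the highest. Non-responders 1 to 4 were at 5.53, 9.71, 8.71 and 6.42 CPM. The groups did not overlap, although responder 4 (10.1 CPM) lay close to non-responder 2. The means were 12.5 ± 1.94 CPM (SD, n = 6) and 7.59 ± 1.94 CPM (SD, n = 4), on 137 to 553 counts per tumor. Of its sequence, 94.7% of the 31-base words occurred in no other gene's annotated transcripts, so by that reference few of its reads could be shared with relatives. The sequence of the BALB/c tumors themselves was not examined. Cadm3 overlaps the span of Aim2 on the opposite strand, and strand was not stated for the counting.

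The call of Aim2 depended on which tumors were included and on one covariate. Its log2 fold change stayed between 0.60 and 0.86 when each tumor was left out, with edgeR adjusted p from 0.0205 to 0.0940. It passed in 3 of 10 such fits, those without non-responder 2, responder 4 or responder 6, and did not pass without non-responder 1, 3 or 4 or responder 1, 2, 3 or 5. In the fits where Aim2 did not pass, its unadjusted p was 0.00172 to 0.00582 by edgeR. Of all genes, edgeR called 0 to 553 in those fits, against 1293 with all 10 tumors. With Ptprc as a covariate the log2 fold change of Aim2 was 0.11 (SE 0.11, adjusted p = 0.931 by edgeR). Ptprc encodes CD45, carried by nearly all leukocytes, and was itself higher in responders, at 380.5 ± 63.1 CPM (SD, n = 6) against 250.6 ± 55.6 CPM (SD, n = 4; log2 fold change 0.60, SE 0.15, adjusted p = 0.0413 by edgeR). In that fit 0 members were called by edgeR and 0 had an unadjusted p under 0.05, 3 estimates were higher and 6 lower, and of all genes 0 were called and 845 had an unadjusted p under 0.05. The covariate fit was not repeated with another tool. Ptprc did not overlap between the groups (326.2 to 499.3 CPM in responders, 181.1 to 307.4 CPM in non-responders). This fit therefore cannot tell leukocyte content and response apart.

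**Figure D3:**
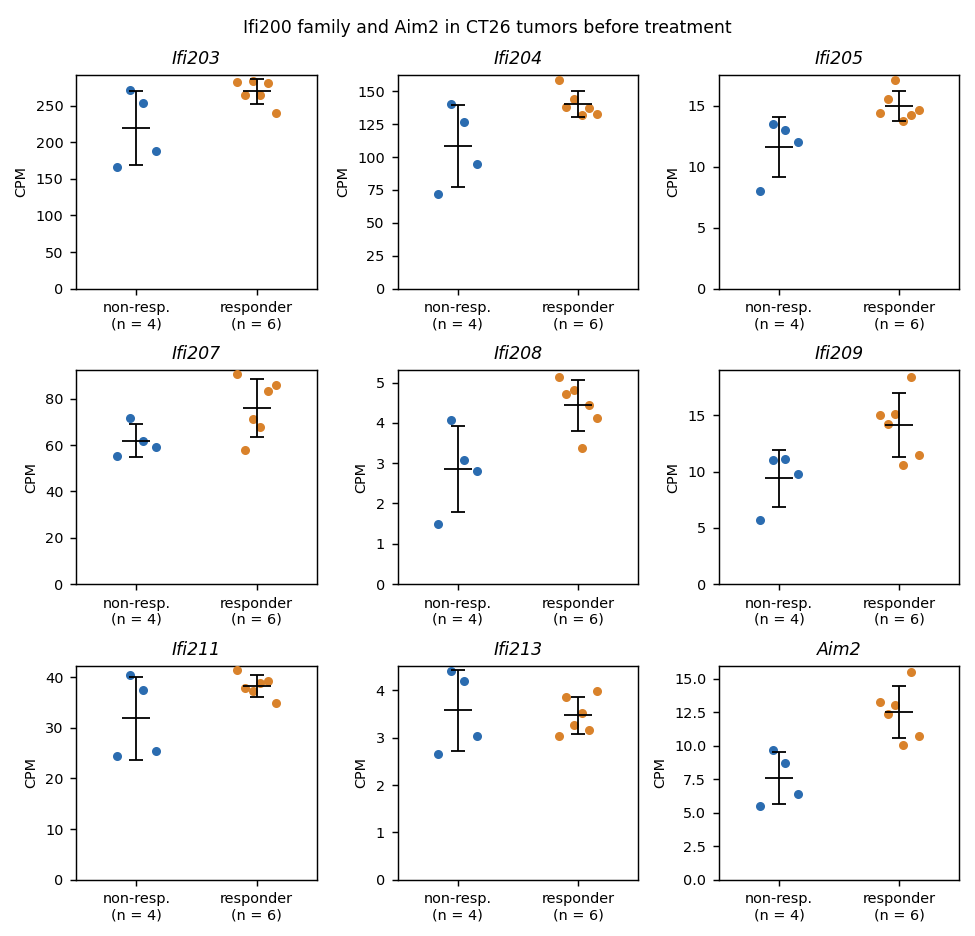
CPM of each sensor in the 6 responders and 4 non-responders, 1 point per tumor, with the mean and SD of each group. Responders lie above all non-responders for Aim2 and Ifi205, and non-responder 2 reaches or passes the responder median for Ifi204, Ifi211 and Ifi213.

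Ifi204 (ENSMUSG00000073489, GRCm38 chr1:173747293-173766943, minus strand), the counterpart of IFI16, was at 131.7, 137.5 and 158.4 CPM in the lowest, median and highest responder. Non-responders 1 to 4 were at 71.7, 140.7, 126.3 and 95.0 CPM. Non-responder 2 lay inside the responders, and 2 of the 6 responders were above it. The log2 fold change was 0.37 (SE 0.15, adjusted p = 0.133 by edgeR). Without non-responder 1 it was 0.22. Ifi211 shared 18.9% of its 31-base words.

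Ifi203 (ENSMUSG00000039997, GRCm38 chr1:173920407-173942672, minus strand) had the most counts of the family, 4102 to 10051 per tumor. Responders were at 239.6, 273.3 and 284.0 CPM (lowest, median and highest), and non-responders 1 to 4 at 165.6, 271.0, 253.5 and 188.3 CPM. Non-responders 1 and 4 were below all responders and the other two were among them. The log2 fold change was 0.30 (SE 0.12, adjusted p = 0.140 by edgeR). It was 0.19 without non-responder 1. The pseudogene Ifi203-ps shared 15.9% of its 31-base words. At this depth counting error is small, and the spread among the 4 non-responders (SD 50.6 CPM) exceeded that among the 6 responders (SD 17.0 CPM).

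Ifi211 (ENSMUSG00000026536, GRCm38 chr1:173896345-173913046, minus strand) showed the same order of non-responders. They were at 24.4, 40.4, 37.4 and 25.4 CPM against 34.8, 38.3 and 41.4 CPM in the lowest, median and highest responder. Its log2 fold change was 0.26 (SE 0.13, adjusted p = 0.216 by edgeR), 0.16 without non-responder 1 and 0.40 without non-responder 2. Ifi211 is the member whose counts are least certain, since 21.1% of its 31-base words were unique to it and 49.5% occurred also in Ifi205. The span of Mndal overlaps those of Ifi203 and Ifi211 on the same strand.

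Ifi205 (ENSMUSG00000054203, GRCm38 chr1:174011998-174031810, minus strand) was at 13.7, 14.5 and 17.1 CPM in the lowest, median and highest responder and at 8.03, 13.5, 12.96 and 12.004 CPM in non-responders 1 to 4. The groups did not overlap, but non-responder 2 (13.5 CPM) and responder 4 (13.7 CPM) nearly met. The log2 fold change was 0.36 (SE 0.13, adjusted p = 0.0936 by edgeR), and 0.23 without non-responder 1. Summed with Ifi211, with which it shares sequence, it gave 53.2 ± 2.13 CPM (SD, n = 6) against 43.5 ± 10.2 CPM (SD, n = 4), a log2 ratio of 0.29.

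Ifi207 (ENSMUSG00000073490, GRCm38 chr1:173723427-173741747, minus strand) differed from the other abundant members in that responders spread widely. They were at 57.9, 77.2 and 90.6 CPM in the lowest, median and highest tumor, and non-responders 1 to 4 at 55.4, 71.7, 61.7 and 59.0 CPM. Responder 2 was below all non-responders but the lowest. The log2 fold change was 0.30 (SE 0.12, adjusted p = 0.133 by edgeR).

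Ifi208 and Ifi209 had larger estimates on fewer counts. Ifi208 (ENSMUSG00000066677, GRCm38 chr1:173673675-173698395, plus strand) was at 3.37, 4.58 and 5.13 CPM in the lowest, median and highest responder and at 1.49, 4.07, 3.08 and 2.81 CPM in non-responders 1 to 4, on 37 to 159 counts. Its log2 fold change was 0.63 (SE 0.23, adjusted p = 0.0960 by edgeR). For Ifi208 and for Ifi209, each taken alone, 5 of 6 responders were above every non-responder. Of the 31-base words of Ifi208, 30.7% occurred also in Ifi213. The sum of Ifi208 and Ifi213 was 7.91 ± 0.584 CPM (SD, n = 6) against 6.44 ± 1.86 CPM (SD, n = 4). That sum had a log2 ratio of 0.30, and 1 of 6 responders was above every non-responder.

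Ifi209 (ENSMUSG00000043263, GRCm38 chr1:173630917-173647928, plus strand) was at 10.6, 14.7 and 18.4 CPM in the lowest, median and highest responder, and at 5.69, 11.01, 11.1 and 9.74 CPM in non-responders 1 to 4. Responder 4 fell between the non-responders. The log2 fold change was 0.59 (SE 0.20, adjusted p = 0.0797 by edgeR). Ifi214 shared 46.8% of the 31-base words of Ifi209, and the sum of both was 18.8 ± 3.84 CPM (SD, n = 6) against 12.4 ± 3.46 CPM (SD, n = 4), a log2 ratio of 0.59 as for Ifi209 alone.

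Ifi213 (ENSMUSG00000073491, GRCm38 chr1:173566283-173599274, minus strand) was the member without a higher estimate in responders. It was at 3.03, 3.40 and 3.99 CPM in the lowest, median and highest responder and at 2.66, 4.405, 4.21 and 3.05 CPM in non-responders 1 to 4, on 66 to 153 counts. Non-responders 2 and 3 were above all responders and non-responder 1 below them. The log2 fold change was -0.04 (SE 0.16, adjusted p = 0.895 by edgeR), and its sign turned to 0.08 without non-responder 2 and to 0.04 without non-responder 3. Ifi208 shared 23.3% of its 31-base words.

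DESeq2 called 4 members higher in responders, Aim2, Ifi205, Ifi208 and Ifi209, where it called 9.56% of all genes higher. Limma and edgeR with another size factor called Aim2 alone. Without non-responder 2, edgeR called Ifi203, Ifi204 and Ifi208 beside Aim2. In that fit it called 1897 of 16238 genes, against 1293 of 16041 with all 10 tumors.

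**Figure D4:**
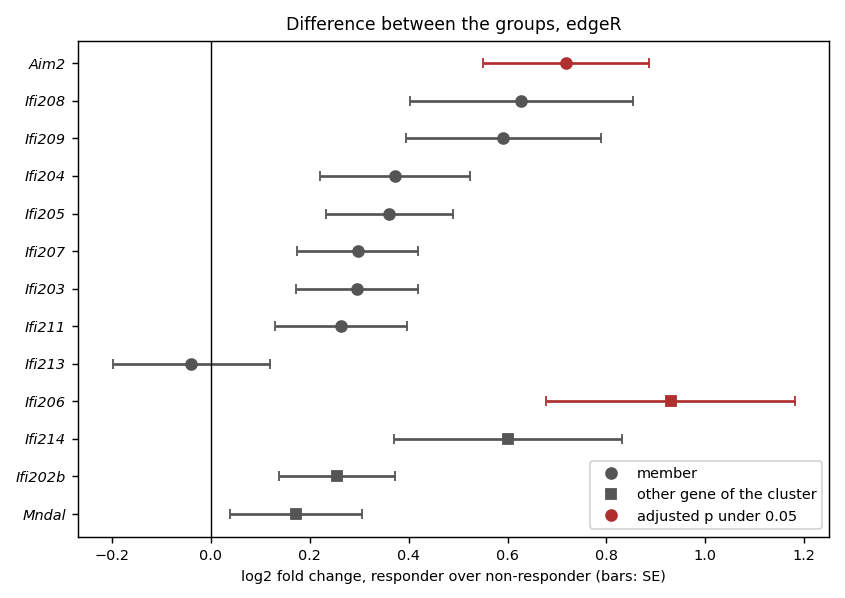
Log2 fold change of responders over non-responders for each sensor and for the other HIN-200 genes, with bars of 1 SE from edgeR. Estimates run from -0.04 (Ifi213) to 0.93 (Ifi206), and Aim2 and Ifi206 passed an adjusted p of 0.05.

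The other HIN-200 genes of the cluster gave 1 call among 4, against 4.71% of all genes, and 4 higher estimates with a median log2 fold change of 0.43. Pyhin1, Pydc3 and Pydc4 had no row under these names. Ifi206 was at 0.957, 1.58 and 2.13 CPM in the lowest, median and highest responder and at 0.606, 1.08, 0.824 and 0.784 CPM in non-responders 1 to 4. Its log2 fold change of 0.93 (SE 0.25, adjusted p = 0.0466 by edgeR) rested on 15 to 70 counts per tumor, and limma and the fit without a filter on low counts did not call it. With each tumor left out, it passed without non-responder 2 and without responder 4 and in none of the other 8 fits. Ifi202b, whose product binds DNA without a pyrin domain and restrains AIM2, was at 201.5 ± 13.2 CPM (SD, n = 6) against 168.7 ± 36.6 CPM (SD, n = 4; log2 fold change 0.26, SE 0.12, adjusted p = 0.174 by edgeR). Mndal had a log2 fold change of 0.17 (SE 0.13, adjusted p = 0.418 by edgeR) and Ifi214 one of 0.60 (SE 0.23, adjusted p = 0.114 by edgeR). Without non-responder 1, the log2 fold change of Mndal was 0.04 and that of Ifi202b 0.16. Without non-responder 2, that of Mndal was 0.30 and Ifi202b passed (adjusted p = 0.0499 by edgeR).

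Summed over the 9 members, the family was at 623.8, 549.6, 589.6, 544.4, 596.6 and 538.2 CPM in responders 1 to 6 and at 340.5, 566.5, 519.0 and 401.7 CPM in non-responders 1 to 4. The means were 573.7 ± 34.6 CPM (SD, n = 6) and 456.9 ± 104.0 CPM (SD, n = 4), a log2 ratio of 0.33, which was 0.21 without non-responder 1 and 0.45 without non-responder 2. Non-responders 1, 3 and 4 were below all responders, and non-responder 2 was above 3 of them.

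The make-up of the sum differed in its smaller parts. Aim2 made up 1.85% to 2.59% of the sum in responders and 1.60% to 1.71% in non-responders, without overlap. The share of Ifi213 was lower in each responder, at 0.486% to 0.742% against 0.758% to 0.810%, also without overlap. The CPM of Ifi213 itself overlapped between the groups, while the mean of the sum it is divided by was higher in responders. Since the shares add up to the whole, they are not independent of each other, and no test was made of them.

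**Figure D5:**
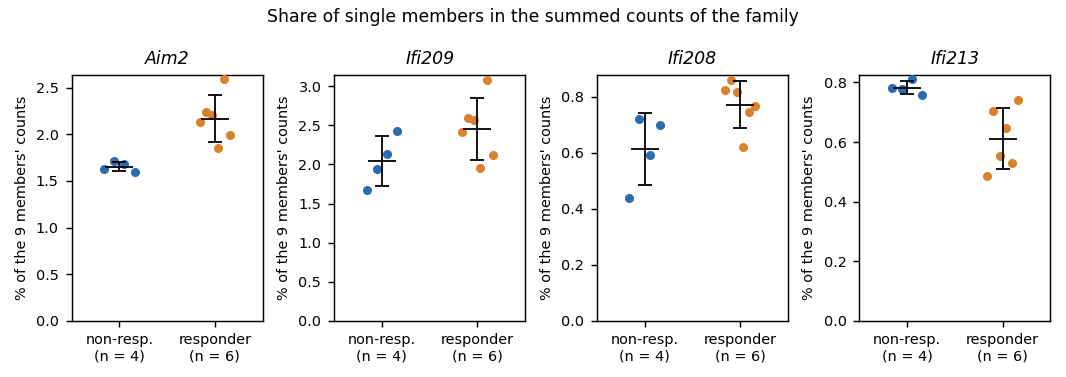
Share of Aim2, Ifi209, Ifi208 and Ifi213 in the summed CPM of the 9 members, in percent, with 1 point per tumor and the mean and SD of the 6 responders and 4 non-responders. The groups do not overlap for Aim2 (1.85% to 2.59% in responders against 1.60% to 1.71%) and for Ifi213 (0.486% to 0.742% against 0.758% to 0.810%), and they overlap for Ifi208 and Ifi209.

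Across the 10 tumors the members other than Ifi213 varied together. As a description, Pearson's r of log2 CPM over their 28 pairs ran from 0.515 to 0.974 with a median of 0.870, on values that share libraries, group difference and, for some pairs, reads. Within the 6 responders the median over these pairs was 0.450 and the range -0.351 to 0.996. The highest value over 10 tumors was that of Ifi203 and Ifi211 (0.974), and the highest within responders was that of Ifi209 and Aim2 (0.996). The 8 pairs with Ifi213 had a median of 0.443 over 10 tumors and values of -0.881 to 0.0220 in responders. Outside the family, the genes most like the mean of the members over the 10 tumors, among genes averaging at least 1 CPM, were Gm12185 (0.994), Trim12c (0.992), Slfn8 (0.992), Samd9l (0.991) and Gvin2 (0.990).

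Of 13 inflammasome genes tested, which include sensors that act beside AIM2 as well as its partners, 4 were higher in responders and 0 lower, against 4.71% of all genes called higher, and all 13 estimates were higher, with a median log2 fold change of 0.38. Pycard, the ASC adaptor that joins AIM2 to caspase-1, was at 14.05 ± 1.96 CPM (SD, n = 6) against 8.49 ± 1.93 CPM (SD, n = 4; log2 fold change 0.73, SE 0.15, adjusted p = 0.0299 by edgeR). The sensors Nlrp1b (log2 fold change 0.65, SE 0.15, adjusted p = 0.0330 by edgeR) and Nlrc4 (0.53, SE 0.14, adjusted p = 0.0432 by edgeR) rose, as did Ninj1, which ruptures the membrane of dying cells (0.38, SE 0.07, adjusted p = 0.0243 by edgeR). Every responder was above every non-responder for Pycard, Nlrp1b and Ninj1, and for 5.84% of all genes. Nlrp1a and Nlrp6 were too low to test. Without non-responder 1, non-responder 4 or responder 3, edgeR called 0 of the 13, with 6, 6 and 7 at an unadjusted p under 0.05, and without responder 2 or non-responder 3 it called 1 and 2. Of all genes, those fits called 16, 0, 17, 244 and 366 in the same order, against 1293 with all 10 tumors. DESeq2 and limma were run on all 10 tumors only.

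Of 20 genes of cytosolic and endosomal DNA sensing, 3 were higher and 2 lower in responders, against 8.06% of all genes called in either direction, with 15 estimates higher and a median log2 fold change of 0.15. Unc93b1, which carries nucleic acid receptors to endosomes, was at 270.0 ± 41.4 CPM (SD, n = 6) against 148.5 ± 26.9 CPM (SD, n = 4; log2 fold change 0.86, SE 0.14, adjusted p = 0.0207 by edgeR). Tlr9, the endosomal DNA receptor, had a log2 fold change of 0.78 (SE 0.19, adjusted p = 0.0372 by edgeR), and the kinase gene Ikbke one of 0.50 (SE 0.12, adjusted p = 0.0341 by edgeR). The genes that were lower, Xrcc6 (-0.23, SE 0.05, adjusted p = 0.0335 by edgeR) and Xrcc5 (-0.26, SE 0.07, adjusted p = 0.0457 by edgeR), encode the Ku proteins, which bind DNA ends in repair and have also been described as DNA sensors. EdgeR called 0 of the 20 without non-responder 1, non-responder 4 or responder 3 (10, 10 and 11 at an unadjusted p under 0.05), 1 without responder 2 or 5, 2 without responder 1 or non-responder 3, and 7 without non-responder 2. Of all genes, edgeR called 1897 without non-responder 2 and 0 to 553 in the others of these fits, against 1293 with all 10 tumors.

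Of 15 interferon signaling genes tested, edgeR called 0, although 11 had an unadjusted p under 0.05, all higher in responders, and 14 estimates were higher, with a median log2 fold change of 0.28. Of all genes, edgeR called 4.71% higher and 15.6% had an unadjusted p under 0.05 in that direction. DESeq2 called 7, where it called 9.56% of all genes higher, and limma 1, and edgeR called 5 without non-responder 2 and 1 without responder 4. In those edgeR fits 1897 and 1619 of all genes were called, against 1293 with all 10 tumors. The smallest p-values were those of Irf8 (log2 fold change 0.66, SE 0.19, adjusted p = 0.0512 by edgeR), Ifnar2 (0.28, SE 0.08, adjusted p = 0.0543), Tyk2 (0.21, SE 0.06, adjusted p = 0.0632) and Irf7 (0.57, SE 0.18, adjusted p = 0.0693), which encode transcription factors, a receptor chain and a kinase of the interferon response. Ifnb1, the gene of interferon beta, had 1 to 6 counts and was not tested.

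Within 1000000 bases of the cluster, 18 of 59 other genes could be tested. Kcnj10, an inward-rectifier potassium channel gene, was called higher (log2 fold change 0.84, adjusted p = 0.0432 by edgeR) and 0 were called lower, with a median log2 fold change of 0.31 and 16 estimates higher. Of all genes, 8.06% were called. The count of neighbors was 0 without non-responder 1 or 4 or without responder 1, 2, 3, 5 or 6, with 4 to 6 at an unadjusted p under 0.05, and 2 without non-responder 2. Of all genes, edgeR called 0 to 735 in the fits with 0 neighbors called and 1897 without non-responder 2.

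Of genes with a RefSeq promoter, 67 of 1055 tested genes with an ISRE match were called higher (6.35%), against 563 of 11624 with or without one (4.84%). Within the cluster, edgeR called Ifi206, which held a match, and Aim2, which held none, and it did not call Ifi209 and Ifi202b, which held no ISRE match, or the other 8 genes with one. Among the members DESeq2 also called Ifi205 and Ifi208, with a match, and Ifi209, without.

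Marker genes of leukocytes moved with these results. Of the leukocyte list, 3 of 4 were called higher, against 4.71% of all genes, and its summed level was 899.4 to 1354.0 CPM in responders against 559.9 to 827.2 CPM in non-responders. Of the macrophage list 6 of 8 were called higher, at 2635.3 to 4000.2 CPM against 1622.3 to 2398.6 CPM, among them Adgre1, which encodes F4/80 (log2 fold change 0.87, SE 0.19, adjusted p = 0.0310 by edgeR). NK cell markers (1 of 5 called) were at 28.0 to 64.9 against 9.003 to 25.6 CPM, also without overlap, where 5.84% of single genes had every responder above every non-responder. The summed ranges overlapped for monocyte (1 of 5 called higher), T cell (1 of 8), dendritic cell (1 of 7), B cell (0 of 3), neutrophil (0 of 4), endothelial (0 of 4) and fibroblast markers (0 higher and 1 lower of 5). None of the listed markers was at 0 in all tumors. Their part in the differences of the sensors was not tested. The fit with Ptprc given above cannot tell it apart from response, since Ptprc did not overlap between the groups.

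Of the markers of the labelled colorectal carcinoma, Krt8 (0 to 14 counts), Krt18 (0 to 3), Epcam (3 to 19) and Vil1 (0 to 4) were nearly absent, while Krt20 had 454 to 1865 counts and Cdh1 79 to 233. Summed, the epithelial list was at 17.4 to 41.8 CPM in responders and 40.1 to 84.4 CPM in non-responders, with 0 of 3 tested genes called. All 3 had lower estimates in responders. The log2 fold change of Krt20 was -0.86 (SE 0.29, adjusted p = 0.0834 by edgeR). Cdh1 was at -0.53 (SE 0.21, adjusted p = 0.128 by edgeR). Cdx2, on 13 to 40 counts, was at -0.95 (SE 0.32, adjusted p = 0.0784 by edgeR).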

How the data were processed

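PolyA RNA of 10 resected CT26 tumors was sequenced. The authors checked reads with FastQC, estimated transcript abundance with Kallisto and summed it to genes with tximport on mm10 (GRCm38). The deposited values are estimated counts per gene, not scaled to depth, and 45.1% of them are not whole. The annotation release, tximport scaling and strand setting are not given in the sources used here, and pseudoalignment splits reads among paralogs.

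Counts were rounded and tested with edgeR 4.0.16 in R 4.3.3 (filterByExpr with minimum count 10 and minimum total 15, TMM, quasi-likelihood test, two-sided, Benjamini-Hochberg over all 16041 genes, threshold 0.05). Rows without a gene name (9633, with 1.04% to 1.23% of the counts) kept their identifier and stayed in the library sizes. Each SE is the absolute estimate over the root of its F statistic, and a prior of 2 counts went into log2 CPM. Alternatives were size factors by RLE, DESeq2 1.42.0, limma 3.58.1 (voom), no filter, Ptprc as covariate and each tumor left out. Spans, exon lengths and 31-base words came from GENCODE M21 (GRCm38), and promoters from RefSeq. These are reference sequences, and differences between them and the BALB/c tumors were not examined. Groups came from the response label, tumors are numbered in accession order, and no sequencing batch was given, so none was fitted.

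The members and lists were chosen with earlier results of these data known. Named genes are the members, the other HIN-200 genes in the table, the called genes of each pathway list (filled to 4 by smallest p), the 5 genes most correlated with the mean of the members, and Ptprc and Adgre1. The neighbor Kcnj10 and the epithelial and promoter genes named beside counts were chosen after their values were seen.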

Additional observations from a re-analysis of the deposited data

Results flagged for a closer look

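Among 56 groups of 4 or 6 tumors examined (members, other HIN-200 genes and named genes), 2 held a tumor far from the rest by Dixon's criterion, where chance gives about 2.8. Nlrp1b was highest in responder 5, at 8.70 CPM against 5.43 to 6.36 CPM in the other responders, and its gap to the next tumor was 0.664 of the range of the group on the log2 scale. Irf8 was lowest in responder 6, at 142.5 CPM against 175.7 to 198.6 CPM, with a gap of 0.631 of the range. No Ifi200 gene and no Aim2 value met the criterion.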

How the results depend on the processing

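Of 135 refits of the 9 members, 114 kept the direction and side of the threshold, 6 passed it newly, 8 no longer passed and 7 turned sign, and no cause of these changes was tested. DESeq2 called 4 members, 2573 of all genes, 9 DNA sensing, 7 interferon signaling and 4 neighboring genes. Limma called 0 other HIN-200, 1 interferon signaling and 2 neighboring genes. With no filter on low counts 0 other HIN-200 genes and 1 interferon signaling gene were called. With Ptprc as covariate the count was 0 for members, all genes, other HIN-200, inflammasome, DNA sensing and neighboring genes, and signs turned for Ifi203 (-0.10), Ifi204 (-0.073), Ifi208 (-0.0015), Ifi209 (-0.14), Ifi211 (-0.11), Mndal (-0.18), Ifi202b (-0.051), Ifi214 (-0.23) and Ifnar2 (-0.0027). With each tumor left out, counts ran from 0 to 4 for members, 0 to 1897 for all genes, 0 to 2 for other HIN-200, 0 to 5 for inflammasome, 0 to 7 for DNA sensing, 0 to 5 for interferon signaling and 0 to 2 for neighboring genes. The highest counts were those without non-responder 2, where Aim2, Ifi203, Ifi204 and Ifi208 were called, and without non-responder 4 edgeR called 0 of all genes, with 4106 at an unadjusted p under 0.05. Ifi213 ran from -0.150 to 0.079, turning to 0.079 without non-responder 2 and to 0.0445 without non-responder 3. The log2 ratio of the summed family was 0.33 and ran from 0.21 to 0.45 over these fits. The sum over all 13 genes, a choice made after seeing the data, gave 0.30. No paired analysis was possible because the labels give no replicate numbers shared between groups. Ifi206, Ifi208 and Ifi213 are limited by depth, and paralogs with shared sequence by how reads were split.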
